A study of Homo sapiens with 18 samples.

Results

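The 40 lysosome and autophagy genes are a list chosen by name, with earlier results of these data known. The list runs from the cargo receptors that enter autophagosomes to the enzymes inside lysosomes. All 40 were found among the 60662 genes of the count table, and all 40 were among the 18592 genes that passed the filter on low counts. They comprise 4 autophagy receptors, 4 genes of the ATG8 family, 10 of the autophagosome machinery, 3 MiT-TFE transcription factors, 6 membrane proteins of lysosomes and endosomes, 2 subunits of the vacuolar proton pump and 11 proteins of the lysosomal lumen. Their messenger RNA was measured by poly-A RNA sequencing in MCF10A, a non-malignant human mammary epithelial cell line, on soft polyacrylamide gels coated with Matrigel (basement membrane extract). In 2D culture the cells got fresh growth medium, and in 3D culture the medium contained 2% Matrigel, which sets around the cells. Each culture was sampled at 3 timepoints with 3 libraries, which gave 6 groups and 18 libraries. The protocol names harvests at 3, 12 and 21 h, which can be matched to timepoints 1, 2 and 3 only by order. The cells of every group were plated sparsely in medium with horse serum, EGF, insulin, cholera toxin and hydrocortisone, and all came from a single line.

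Autophagy encloses cytoplasm in a double membrane that fuses with the lysosome. The ULK1 kinase complex starts the process, a lipid kinase complex with BECN1 and ATG14 marks the forming membrane, and ATG8 proteins on that membrane bind receptors such as SQSTM1 that carry cargo. TFEB, TFE3 and MITF are transcription factors that drive many lysosomal and autophagy genes through the CLEAR element, built around the E-box CACGTG, and mTORC1 at the lysosomal surface holds TFEB and TFE3 in the cytoplasm in fed cells. The values are transcript levels, and no protein or autophagic flux was measured.

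The summed gene counts of a library were 4.73 to 5.73 times the library total in the deposited file headers, which ran from 9.31 M to 17.7 M (M for 1e6), so levels in CPM, counts per 1e6 summed counts, are compared between libraries and never between genes. The tests used 17 libraries. The library labelled 2D timepoint 3 replicate 1 was left out because its labels list the raw counts alone, so 2D timepoint 3 had n = 2. That library lay nearer to the 3D than to the 2D mean of timepoint 3 in 260 of the 278 genes called there (93.5%). These genes were called with the 2 other 2D libraries of timepoint 3, and such a choice can itself raise this share. For the listed genes the left-out library lay nearer to 3D in 21 and nearer to 2D in 19, so timepoint 3 is given with and without it. Libraries that share a replicate number carry the same date in the labels, and their deviations from the group means correlated at 0.186 to 0.513 within timepoints. A second model that blocks on replicate number is given beside a result where it changes the call. All 9 basal and all 5 luminal epithelial markers were detected in every group. The luminal marker KRT19 was low, with group means of 0.18 to 0.572 CPM over the tested libraries, and was at 0 in a 2D library of timepoint 1.

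The E-box is shown first because the MiT-TFE factors of the list bind it. CACGTG, which reads the same on both strands, was searched in RefSeq promoters of 250 bases before and 50 after the gene start on GRCh38.p14, which held 34 of the 40 genes. It was present in 8 of these 34 (23.5%), against 2548 of 35116 promoters in the whole table (7.26%). These 20-base windows, read on the strand of the gene, hold the copy nearest to each start, with the E-box in capitals:
CTSD: ccgcgccCACGTGaccggtc
GAA: cgccggtCACGTGacccgcc
NEU1: gcgtgatCACGTGggaggag
CTSA: cggagttCACGTGactcgta
LAMP1: cgcagctCACGTGacaagcg
MCOLN1: accgggtCACGTGaccgagg
ATP6V0D1: ttatggtCACGTGaggcgct
ATG14: aaaatccCACGTGactggct

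The E-box of CTSD began 47 bases before the start, in chr11:1763962-1763981 on the minus strand, and that of GAA 31 bases before, in chr17:80101543-80101562 on the plus strand. Those of NEU1 (chr6:31862935-31862954, minus), CTSA (chr20:45891303-45891322, plus) and LAMP1 (chr13:113297231-113297250, plus) began 126, 25 and 1 bases before their starts. Those of MCOLN1 (chr19:7522603-7522622, plus), ATP6V0D1 (chr16:67481204-67481223, minus) and ATG14 (chr14:55411839-55411858, minus) began 14, 59 and 21 bases before. Of these 8 genes, 8 had a negative log2 fold change (3D minus 2D) at timepoint 3, from -1.21 to -0.16 with a median of -0.44, of which CTSD alone passed the test without the replicate block. Of the 26 genes without the E-box in the window, 15 were negative, from -2.58 to 0.86 over all 26, with a median of -0.22. SQSTM1 and GPNMB, which also passed at timepoint 3, are among these 26. Of all genes tested, 51.4% had a log2 fold change above 0 at timepoint 3. At timepoint 2, 7 of the 8 genes were negative, with a median of -0.40, and 13 of the 26, with a median of -0.01. At timepoint 1, where no gene was called, 6 of the 8 and 12 of the 26 were negative, with medians of -0.04 and 0.00. These counts are a description with no test, and a match shows only that the letters are there.

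At timepoint 1 the listed genes stood at nearly the same levels in 2D and 3D. None of the 40 was called by edgeR's quasi-likelihood test at an adjusted p under 0.05, as for 0% of all genes tested, and DESeq2 and limma-voom also called 0. At an unadjusted p under 0.05 there was 1, against 1.31% of all genes: GPNMB, a glycoprotein of lysosomes and melanosomes, with a log2 fold change of 1.93 (SE 0.51, adjusted p = 1). Without it the log2 fold changes lay between -0.11 and 0.25, and the median of all 40 was -0.01 against 0 for all genes.

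At timepoint 2 the lysosomal cholesterol carrier NPC2 was 2.02 times higher in 3D than in 2D and no other listed gene passed. This 1 of 40 stood against 1.49% of all genes called in either direction and 0.705% called higher. In bulk RNA more or fewer cells that express a gene and more or less of its RNA per cell cannot be told apart, here and in each result that follows. The list's median log2 fold change was -0.17, with 14 genes above and 26 below 0, and the median of all genes was -0.03. With the replicate block 3 listed genes were higher (NPC2, GABARAPL2 and ATG5) and 7 lower (CTSD, PSAP, NBR1, ATG14, ULK1, LAMP1 and CTSA), where 15.9% of all genes passed, 9% higher and 6.86% lower.

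At timepoint 3 the autophagy receptor SQSTM1, the membrane glycoprotein GPNMB and the lysosomal protease CTSD were lower in 3D, by 2.57, 5.97 and 2.32 times. SQSTM1 had a mean of 1560 ± 292 CPM (SD, n = 2) in 2D and 609 ± 41.9 CPM (SD, n = 3) in 3D, GPNMB of 2.94 ± 0.596 and 0.49 ± 0.323 CPM, and CTSD of 1720 ± 422 and 743 ± 156 CPM. These 3 of 40 stood against 1.5% of all genes called in either direction and 1.26% called lower. The list's median was -0.28, with 14 genes above and 26 below 0, against 0.02 for all genes. Between the groups 17 genes did not overlap with 3D lower, where 20.2% of all genes did so, and 7 did not overlap with 3D higher (18.9% of all genes). Groups of 2 or 3 libraries thus often did not overlap. This share is not given for the other timepoints, and non-overlap of single genes is a description only. With the replicate block 2 listed genes were higher (ATG5 and NPC2) and 11 lower, where 9.75% of all genes passed, 4.45% higher and 5.3% lower.

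Other measures of the libraries differed between the cultures as well. At timepoint 3 the basal markers summed to 9670 and 10600 CPM in the tested 2D libraries and to between 5150 and 8130 CPM in 3D, and the luminal markers to 845 and 894 CPM against 512 to 665 CPM, although no single basal or luminal marker passed. The mitochondrial share of counts in 3D was 0.364% to 0.482% at timepoint 2 and 0.398% to 0.533% at timepoint 3. In 2D it was 0.908% to 1.18% and, over the tested libraries of timepoint 3, 0.589% to 0.684%. The part of these measures in the differences of the listed genes was not tested.

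With all 18 libraries edgeR called 0 listed genes and 0 genes in all at timepoint 3. The log2 fold changes of SQSTM1, GPNMB and CTSD were then -1.03, -2.17 and -0.96 (edgeR adjusted p = 0.317, 0.284 and 0.342). With all 18 and the replicate block 6 listed genes passed, each lower in 3D (SQSTM1, GPNMB, CTSD, PSAP, ULK1 and ATG13), where 5.81% of all genes passed, 3.33% lower. Of the 17 libraries, leaving out 2D timepoint 3 replicate 2 ended all 3 calls, with edgeR adjusted p of 0.0811 for SQSTM1, 0.0765 for GPNMB and 0.43 for CTSD. The call of GPNMB also ended without 2D timepoint 3 replicate 3 (0.0861) or 3D timepoint 3 replicate 3 (0.0656), and that of CTSD without 3D timepoint 3 replicate 1 (0.145) or replicate 3 (0.0961). In the plot of fold changes by role every gene but GPNMB lies near 0 at timepoint 1, and the genes spread at timepoints 2 and 3.

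**Figure D1:**
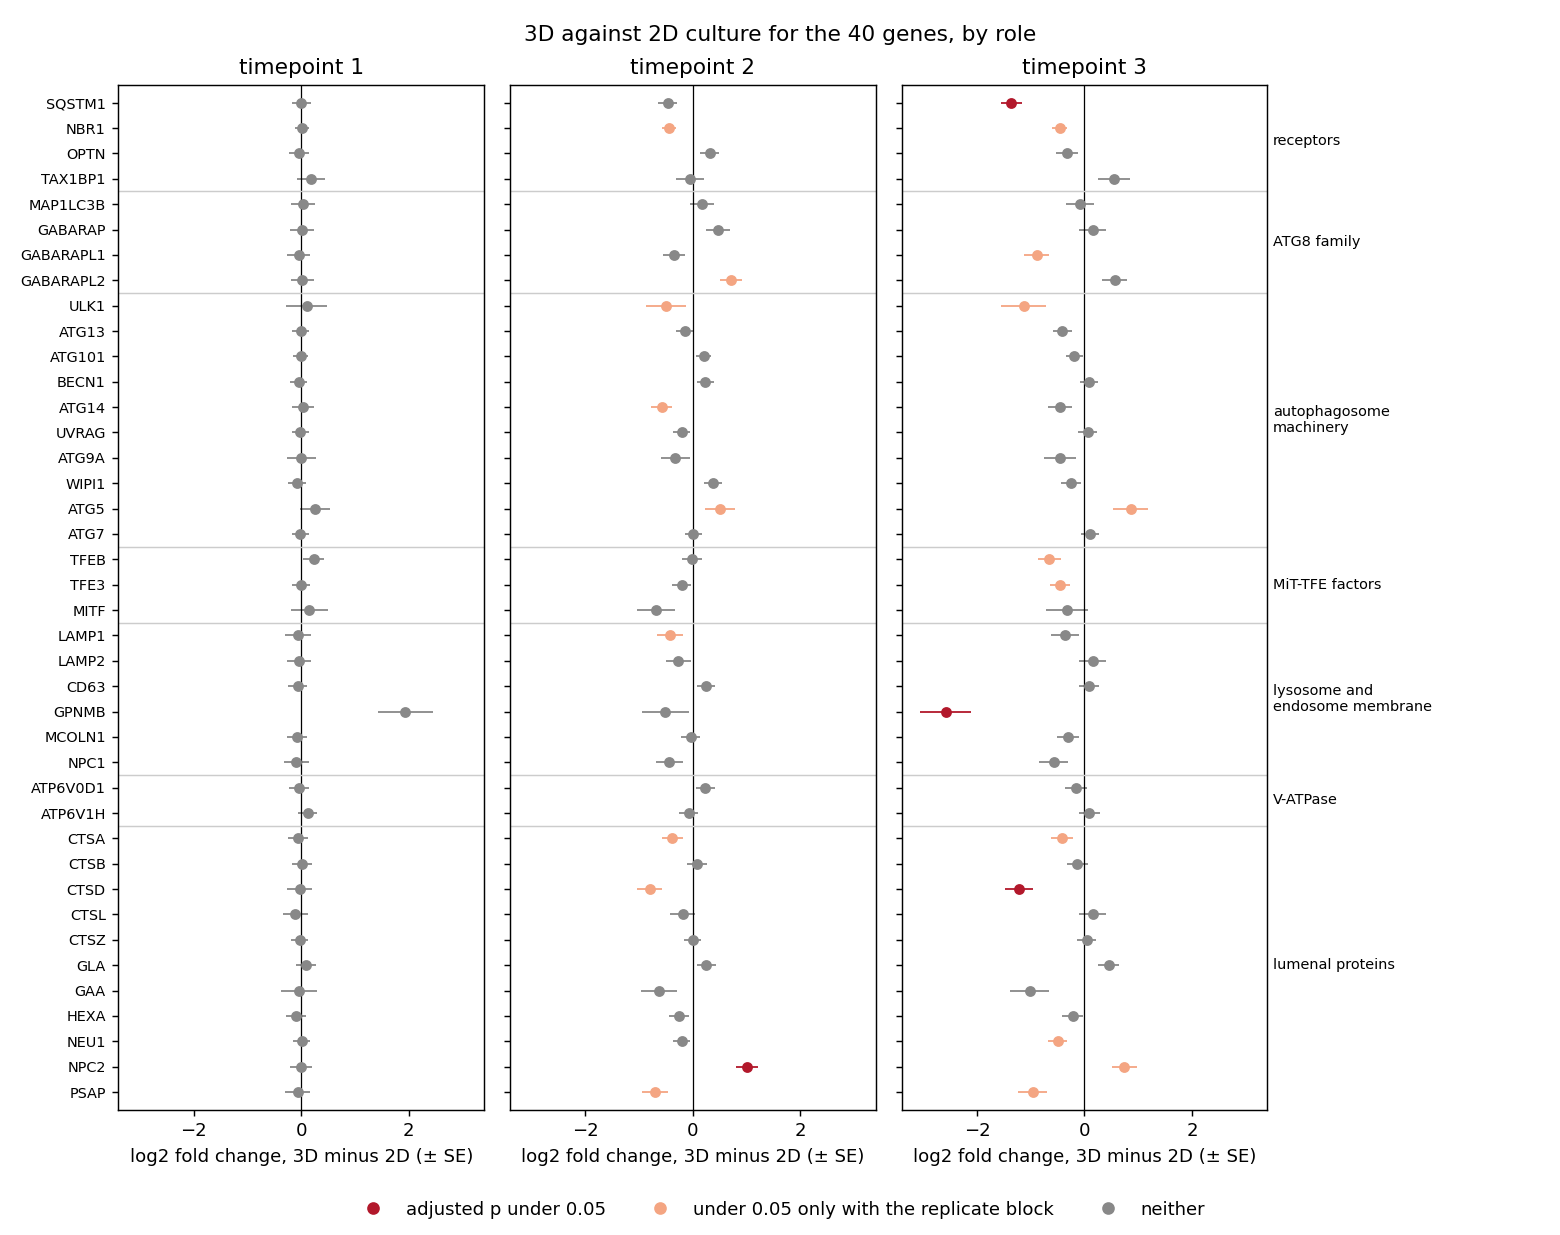
Log2 fold change of 3D against 2D culture with its standard error (x axis) for the 40 genes (y axis, grouped by role) at each timepoint. Red points passed an adjusted p under 0.05 in edgeR and orange points passed only with the replicate block; there is 1 red point at timepoint 2 and there are 3 at timepoint 3.

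Of the 4 autophagy receptors, SQSTM1 showed the largest difference between cultures. SQSTM1, or p62, binds ubiquitinated cargo and LC3 and also holds the NRF2 inhibitor KEAP1. In 2D it stood at 884, 696 and 875 CPM at timepoint 1, at 987, 1060 and 704 CPM at timepoint 2, and at 1770 and 1360 CPM at timepoint 3. In 3D the values were 860, 765 and 839 CPM, then 739, 719 and 527 CPM, then 610, 651 and 567 CPM. Both tested 2D libraries of timepoint 3 lay above every other tested library, and the left-out library, at 594 CPM, lay among the 3D ones. For SQSTM1 the log2 fold change of 3D against 2D was -0.47 (SE 0.18, edgeR adjusted p = 0.173) at timepoint 2 and -1.36 (SE 0.20, adjusted p = 0.00312) at timepoint 3. Between tested libraries of the same date the differences at timepoint 3 were -1.44 and -1.26. In the pair of replicate 1, the left-out 2D library had 594 CPM and the 3D library 610 CPM. SQSTM1 (chromosome 5, 179822485 to 179837255, plus strand, hg38 coordinates of the deposited table) overlaps MRNIP on the other strand, which had -1.21 (SE 0.24, edgeR adjusted p = 0.0198). No source used here states whether reads were counted by strand, so shared reads of the pair cannot be told apart.

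NBR1, a receptor with a domain structure like that of SQSTM1, showed a smaller difference. At timepoint 2 NBR1 was at 111, 118 and 115 CPM in 2D and 94.3, 86.3 and 72.8 CPM in 3D. At timepoint 3 NBR1 was at 115 and 108 CPM in 2D and 78.1, 83.2 and 81 CPM in 3D. NBR1 stood at 90.9, 106 and 93.4 CPM in 2D and 98.8, 103 and 92.1 CPM in 3D at timepoint 1. The groups did not overlap at timepoints 2 and 3, and the left-out library stood at 84.1 CPM. The log2 fold changes of -0.44 (SE 0.13) and -0.46 (SE 0.14) had an edgeR adjusted p of 0.082 and 0.118, and of 0.0105 and 0.0207 with the block. OPTN and TAX1BP1, receptors of mitochondrial and other ubiquitinated cargo, had 0.31 and -0.06 at timepoint 2 and -0.32 and 0.55 at timepoint 3, and neither passed in either fit.

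The 4 ATG8 genes did not move as one. Their proteins are coupled to lipid on the autophagosome and bind receptors. GABARAPL1 was at 65.9 and 49.8 CPM in 2D at timepoint 3 and at 31.7, 36.2 and 25.7 CPM in 3D, with 33.9 CPM in the left-out library. At timepoint 2 GABARAPL1 was at 41.6, 46.9 and 35.6 CPM in 2D and 39.2, 36 and 21.8 CPM in 3D. At timepoint 1 GABARAPL1 was at 51, 60.4 and 68.8 CPM in 2D and 57.8, 53.8 and 62.3 CPM in 3D. The 3D libraries of timepoint 3 lay below the tested 2D ones of that time and below all libraries of timepoint 1. For GABARAPL1 the log2 fold change of -0.89 (SE 0.23) at timepoint 3 had an edgeR adjusted p of 0.0688, and 0.017 with the block.

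GABARAPL2 lay on the other side. At timepoint 2 GABARAPL2 was at 36.7, 29.9 and 30.3 CPM in 2D and at 59.1, 44.9 and 54.4 CPM in 3D. At timepoint 3 GABARAPL2 was at 31 and 34.6 CPM in 2D and 54.1, 44.3 and 46.8 CPM in 3D, with 42.1 CPM in the left-out library. At timepoint 1 GABARAPL2 was at 40.3, 27.4 and 41.5 CPM in 2D and 36.2, 27.2 and 47.5 CPM in 3D, which overlapped. The groups did not overlap at timepoint 2, with a log2 fold change of 0.71 (SE 0.21, edgeR adjusted p = 0.0836, and 0.0065 with the block), nor at timepoint 3, with 0.56 (SE 0.23, adjusted p = 0.209). GABARAP had 0.47 and 0.15 at timepoints 2 and 3 and MAP1LC3B, which encodes the common autophagosome marker LC3B, had 0.17 and -0.09, and none of these passed in either fit.

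Among the 10 genes of the autophagosome machinery, ULK1, ATG14 and ATG5 passed in a culture comparison, and only with the replicate block. ULK1 encodes the kinase that starts autophagy and is itself inhibited by mTORC1. It was at 26.9, 29.5 and 21.8 CPM in 2D at timepoint 1, at 15.5, 21.2 and 13.4 CPM at timepoint 2, and at 26.8 and 14.2 CPM at timepoint 3. In 3D it was at 25.2, 37.8 and 20.7 CPM, then 8.46, 18.4 and 8.62 CPM, then 7.89, 14.8 and 5.38 CPM. Replicate 2 was the highest library in every group tested, and the cultures overlapped at each timepoint. Between libraries of the same date 3D was the lower in every pair at timepoints 2 and 3, and at timepoint 1 the differences were -0.09, 0.36 and -0.07 on the log2 scale. The left-out library had 13 CPM. For ULK1 the log2 fold change was -0.50 (SE 0.38) at timepoint 2 and -1.13 (SE 0.42) at timepoint 3, with an edgeR adjusted p of 0.477 and 0.164, and of 0.0426 and 0.00342 with the block.

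ATG14, the subunit that directs the lipid kinase complex to autophagosome formation, was lower in 3D at timepoint 2 only with the replicate block. At timepoint 2 ATG14 was at 7.28, 4.82 and 4.47 CPM in 2D and 4.02, 3.14 and 3.92 CPM in 3D. At timepoint 3 ATG14 was at 4.9 and 5.58 CPM in 2D and at 4.04, 3.33 and 4.08 CPM in 3D, with 4.89 CPM in the left-out library. At timepoint 1 ATG14 was at 7.77, 7.21 and 6.68 CPM in 2D and 7.84, 7.76 and 6.58 CPM in 3D. The cultures overlapped at timepoint 1 and not at timepoints 2 and 3. For ATG14 the log2 fold change at timepoint 2 was -0.58 (SE 0.20, edgeR adjusted p = 0.123, and 0.0296 with the block), and at timepoint 3 it was -0.46 (adjusted p = 0.266, and 0.0717 with the block).

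ATG5, part of the enzyme that couples ATG8 proteins to lipid, passed as higher in 3D at timepoints 2 and 3 only with the block. At timepoint 3 it was at 24.1 and 31.4 CPM in 2D and 66, 37.5 and 47.8 CPM in 3D. At timepoint 2 ATG5 was at 47.3, 31.9 and 36.5 CPM in 2D and 76, 35.2 and 53.7 CPM in 3D. At timepoint 1 ATG5 was at 42, 28.9 and 26.2 CPM in 2D and 45.9, 31.8 and 37.5 CPM in 3D. Replicate 1 was the highest where it was tested, and the left-out 2D replicate 1 had 57.6 CPM, inside the range of the 3D libraries. For ATG5 the log2 fold change at timepoint 3 was 0.86 (SE 0.32, edgeR adjusted p = 0.168, and 0.0178 with the block, where it was 0.64), and 0.42 with all 18 libraries (adjusted p = 0.617). At timepoint 2 it was 0.51 (adjusted p = 0.319, and 0.0281 with the block). The other 7 genes (ATG13, ATG101, BECN1, UVRAG, ATG9A, WIPI1 and ATG7) had log2 fold changes between -0.46 and 0.37 at the later timepoints and passed in neither of the 17-library fits.

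The MiT-TFE factors TFEB and TFE3 were lower in 3D at timepoint 3 with the replicate block. TFEB was at 34.6 and 29.8 CPM in 2D and at 19.8, 24.3 and 17.5 CPM in 3D. At timepoint 1 TFEB was at 22.7, 21.3 and 18.2 CPM in 2D and 20.5, 30.7 and 21.9 CPM in 3D, and at timepoint 2 at 24.1, 27.7 and 26.3 CPM and 26.1, 30.4 and 20.6 CPM. The groups overlapped at timepoints 1 and 2 and not at timepoint 3, where the left-out 2D library had 23.2 CPM. For TFEB the log2 fold change of -0.65 (SE 0.21) had an edgeR adjusted p of 0.134, and 0.0164 with the block. With all 18 libraries and the block it was -0.51 (adjusted p = 0.0529).

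TFE3 was at 42.3 and 32 CPM in 2D at timepoint 3 and at 26.2, 31.9 and 23.7 CPM in 3D, so the nearest libraries of the 2 cultures almost met. It was at 32.8, 34.5 and 31.3 CPM in 2D and 28.5, 34.4 and 22.4 CPM in 3D at timepoint 2. At timepoint 1 TFE3 was at 26.9, 26.9 and 25 CPM in 2D and 28.1, 27.2 and 23.4 CPM in 3D, and the left-out library had 30.6 CPM. For TFE3 the log2 fold change at timepoint 3 was -0.45 (SE 0.19, edgeR adjusted p = 0.222, and 0.0385 with the block). MITF, the melanocyte and osteoclast member of the family, had -0.69 (SE 0.35) at timepoint 2 and -0.32 (SE 0.39) at timepoint 3 and passed in neither fit.

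Of the 6 membrane proteins, GPNMB alone passed between cultures without the block. In 2D it rose from 0.181, 0.0842 and 0.0602 CPM at timepoint 1 through 0.682, 1.24 and 0.996 CPM at timepoint 2 to 2.52 and 3.36 CPM at timepoint 3. In 3D it was at 0.491, 0.477 and 0.33 CPM, then 0.961, 0.644 and 0.426 CPM, then 0.863, 0.3 and 0.307 CPM. The 3D libraries lay above the 2D ones at timepoint 1, overlapped them at timepoint 2 and lay below the tested ones at timepoint 3, and the left-out library had 0.769 CPM. The counts behind these values were 17, 5 and 4 in 2D at timepoint 1 and 131 and 252 at timepoint 3, and 62, 18 and 22 in 3D at timepoint 3. Since the summed counts exceed the library totals, a count need not be a separate read. For GPNMB the log2 fold change at timepoint 3 was -2.58 (SE 0.48, edgeR adjusted p = 0.0138).

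GPNMB is known from melanocytes and macrophages, so their markers are given beside it. The melanocyte markers TYR and DCT were at 0 in every library, and at timepoint 3 the sum of the 4 melanocyte markers ranged over 1.29 to 2.17 CPM across the tested 2D libraries and over 0.515 to 1.31 CPM across the 3D libraries. Of the 6 macrophage markers CD163 and AIF1 were at 0 in every library and PTPRC at 0 in every 2D library and at most 0.0278 CPM in 3D. The macrophage sum, made up of CD14, CSF1R and CD68, ranged over 38 to 48.6 CPM across the tested 2D libraries of timepoint 3 and over 24.8 to 33.5 CPM across the 3D libraries. CD14 was lower in 3D at timepoint 3, with a log2 fold change of -1.33 (SE 0.25, edgeR adjusted p = 0.0146), and no other macrophage marker passed there. CD68 had a mean of 17.8 CPM in the tested 2D libraries of timepoint 3 and of 17.8 CPM in the 3D libraries. At timepoint 2, where GPNMB did not pass, 1 of the 6 macrophage markers passed, as did 1.49% of all genes. The part of these markers in the GPNMB result was not tested.

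LAMP1, a major glycoprotein of the lysosomal membrane, carries 6 copies of the E-box in its promoter window. At timepoint 2 LAMP1 was at 88.2, 94.4 and 71.1 CPM in 2D and 50.1, 83.9 and 55.1 CPM in 3D, and at timepoint 3 at 99.2 and 74.3 CPM and 76.3, 76.2 and 50.5 CPM. At timepoint 1 LAMP1 was at 94.7, 111 and 78.6 CPM in 2D and 98.3, 107 and 67.6 CPM in 3D. The cultures overlapped at each timepoint, and the left-out library had 94 CPM. For LAMP1 the log2 fold change at timepoint 2 was -0.42 (SE 0.24, edgeR adjusted p = 0.33, and 0.0422 with the block). LAMP2, the tetraspanin CD63, the calcium channel MCOLN1 and the cholesterol transporter NPC1 had log2 fold changes between -0.57 and 0.25 at timepoints 2 and 3 and passed in neither fit. The proton pump subunits ATP6V0D1 and ATP6V1H, whose complex acidifies the lysosome, lay between -0.16 and 0.23.

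Among the lumenal proteins, CTSD (lower in 3D at timepoint 3) and NPC2 (higher in 3D at timepoint 2) passed between cultures without the block. CTSD, the aspartic protease cathepsin D, was lower in 3D at timepoint 3. In 2D it stood at 1220, 1240 and 1260 CPM at timepoint 1, at 1450, 1780 and 1120 CPM at timepoint 2, and at 2020 and 1420 CPM at timepoint 3. In 3D it stood at 1270, 1350 and 1020 CPM, then 614, 1110 and 778 CPM, then 631, 922 and 677 CPM. At both later timepoints every 3D library lay below every tested 2D library, and the left-out library had 907 CPM, within the 3D range. For CTSD the log2 fold change was -0.80 (SE 0.23, edgeR adjusted p = 0.0857, and 0.00574 with the block) at timepoint 2 and -1.21 (SE 0.26, adjusted p = 0.0273) at timepoint 3. CTSD (chromosome 11, 1752755 to 1763927, minus strand, hg38) overlaps AC068580.4 on the same strand, which had -1.29 at timepoint 3 (edgeR adjusted p = 0.027), and no source used here states how reads in the overlap were assigned.

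PSAP, the precursor of the saposins that help break down sphingolipids, differed in the same direction. In 2D it was at 402, 433 and 369 CPM at timepoint 1, at 487, 549 and 391 CPM at timepoint 2, and at 666 and 500 CPM at timepoint 3. In 3D it was at 425, 427 and 296 CPM, then 223, 404 and 250 CPM, then 331, 356 and 214 CPM. The cultures overlapped at timepoint 2 and not at timepoint 3, and the left-out library lay between them at 432 CPM. For PSAP the log2 fold change was -0.70 (SE 0.24) at timepoint 2 and -0.96 (SE 0.27) at timepoint 3, with an edgeR adjusted p of 0.13 and 0.088, and of 0.009 and 0.00353 with the block.

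NPC2, which hands cholesterol to NPC1 in the lysosome, was higher in 3D at timepoint 2. It was at 300, 337 and 296 CPM in 2D and at 607, 680 and 600 CPM in 3D, with differences of 1.01, 1.01 and 1.02 between libraries of the same date. At timepoint 3 NPC2 was at 290 and 292 CPM in 2D and 485, 513 and 456 CPM in 3D, and at 354 CPM in the left-out library. At timepoint 1 the cultures matched by date, with 357, 259 and 441 CPM in 2D and 325, 267 and 457 CPM in 3D. For NPC2 the log2 fold change was 1.01 (SE 0.20, edgeR adjusted p = 0.0259) at timepoint 2 and 0.74 (SE 0.23, adjusted p = 0.119, and 0.0409 with the block) at timepoint 3. Leaving out any 1 of the 6 libraries of timepoint 2 ended the call, with adjusted p from 0.0519 to 0.0981 and log2 fold changes from 0.94 to 1.08.

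The share of counts on ribosomal protein genes also differed between libraries. At timepoint 1 it was 8.09% in 2D and 7.64% in 3D for replicate 1. At that time it was 6.66% and 6.39% in the replicate 2 libraries, where NPC2 was lowest, and 13.1% and 13.6% in replicate 3, where NPC2 was highest. At timepoint 2 the 2D libraries had 9.01%, 11.1% and 11.2% and the 3D libraries 13.5%, 18.7% and 18.3%, where NPC2 was at 607, 680 and 600 CPM. At timepoint 3 it was 11.8% and 11.7% in the tested 2D libraries and 13.1%, 15.2% and 14% in 3D. In 2D timepoint 1 replicate 1 NPC2 was at 357 CPM, above the tested 2D libraries of timepoint 3. Log2 fold changes at timepoint 2 also fell with gene length, with a rank correlation of -0.26 across 18403 genes, which are not independent. With an offset for length the log2 fold change of NPC2 was 0.90 (edgeR adjusted p = 0.0317). The part of the ribosomal share in the result was not tested.

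CTSA, the protective protein for NEU1 and beta-galactosidase, and NEU1, a sialidase, were lower in 3D at timepoint 3 only with the block. CTSA was at 175 and 133 CPM in 2D and 117, 125 and 105 CPM in 3D at timepoint 3, and at 152, 158 and 119 CPM and 101, 132 and 96.2 CPM at timepoint 2. At timepoint 1 CTSA was at 144, 142 and 116 CPM in 2D and 145, 143 and 98.1 CPM in 3D. The groups overlapped at timepoint 2 and not at timepoint 3, and the left-out library had 138 CPM. For CTSA the log2 fold change was -0.38 (SE 0.19) at timepoint 2 and -0.42 (SE 0.21) at timepoint 3, with an edgeR adjusted p of 0.271 and 0.291, and of 0.0285 and 0.0357 with the block.

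NEU1 was at 37.9 and 30.6 CPM in 2D and 24.1, 26.6 and 22 CPM in 3D at timepoint 3, and at 23.5 CPM in the left-out library. At timepoint 2 NEU1 was at 29.5, 32.1 and 27.3 CPM in 2D and 23.6, 30.1 and 23.2 CPM in 3D, and at timepoint 1 at 23.2, 18.8 and 19.6 CPM and 23.6, 19.5 and 18.8 CPM. The tested 2D libraries of timepoint 3 lay above every 3D library, and 1 further library, 2D timepoint 2 replicate 2, lay between them. For NEU1 the log2 fold change at timepoint 3 was -0.50 (SE 0.18, edgeR adjusted p = 0.156, and 0.0334 with the block). The remaining lumenal proteins were the cathepsins CTSB, CTSL and CTSZ and the glycosidases GLA, GAA and HEXA. They had log2 fold changes from -1.02 for GAA, the glycogen-degrading enzyme, to 0.45 for GLA at timepoint 3, and passed in neither fit.

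**Figure D2:**
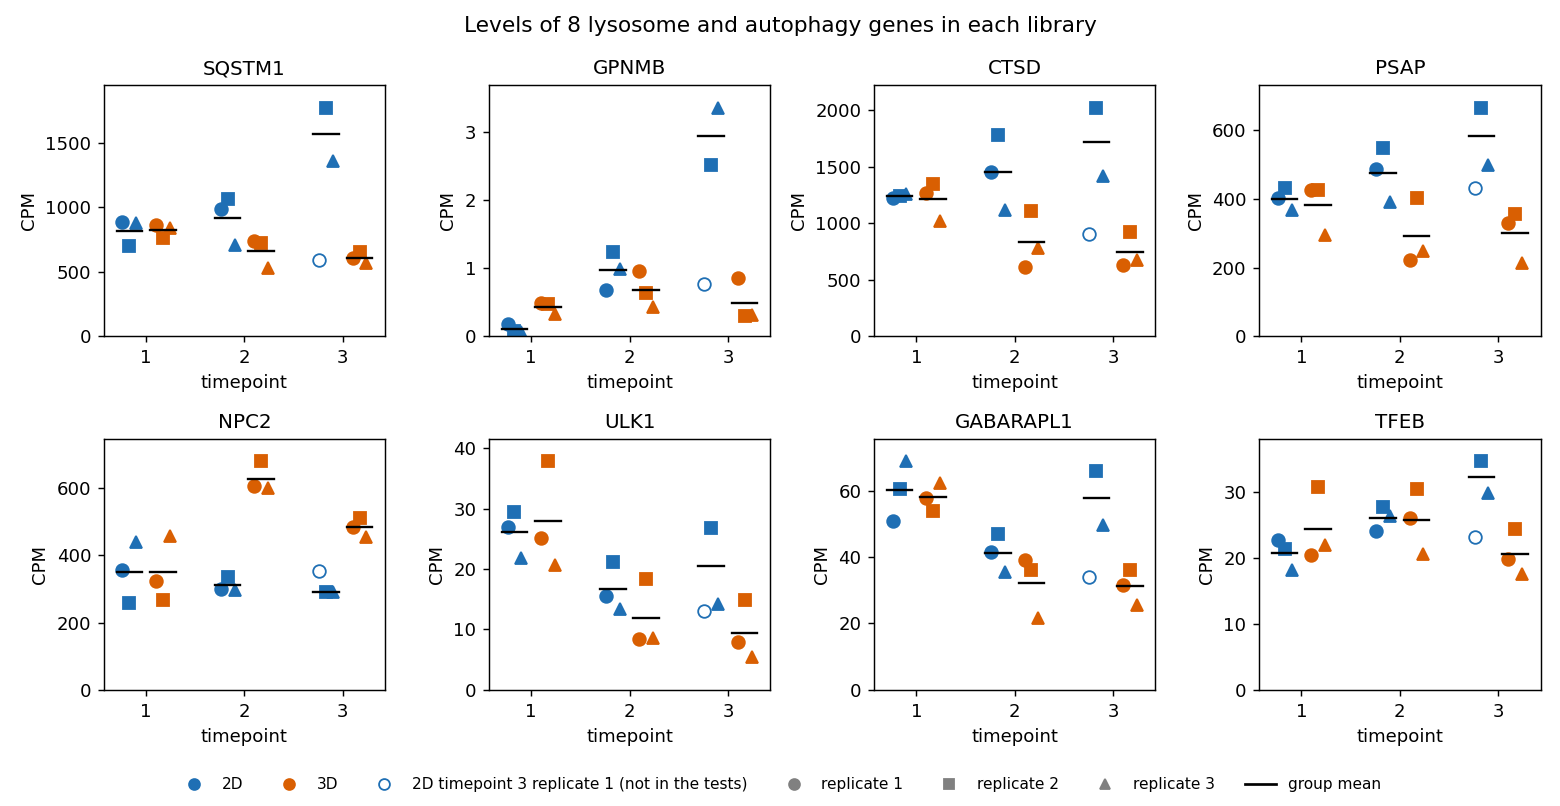
CPM (y axis, linear) by timepoint (x axis) for 8 genes, with 2D libraries in blue, 3D in orange, replicates 1, 2 and 3 as circles, squares and triangles, and a bar at the mean of the tested libraries of each group. The open circle is the left-out 2D library of timepoint 3, which lies at 594 CPM for SQSTM1 and 907 CPM for CTSD, beside the 3D libraries.

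Over time in 2D culture GPNMB, SQSTM1 and NEU1 rose from timepoint 1 to timepoint 3, and no listed gene fell. These 3 of 40 stood against 4.86% of all genes called, 2.5% higher and 2.36% lower. The log2 fold changes were 4.68 for GPNMB (SE 0.54, edgeR adjusted p = 0.000106), 0.93 for SQSTM1 (SE 0.20, adjusted p = 0.0148) and 0.74 for NEU1 (SE 0.18, adjusted p = 0.0245). The list's median was 0.06, with 23 genes above 0, and that of all genes was -0.02. With the block TFEB, TFE3 and GAA were also higher (0.63, 0.50 and 1.11) and ATG13 lower (-0.54), with edgeR adjusted p of 0.104, 0.159, 0.0945 and 0.114 without it and 0.0179, 0.0231, 0.0464 and 0.00835 with it, where 10.5% of all genes passed, 5.38% higher and 5.13% lower.

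With all 18 libraries the call of GPNMB was kept (log2 fold change 4.27, edgeR adjusted p = 0.000475), and SQSTM1 (0.60, adjusted p = 0.271) and NEU1 (0.58, adjusted p = 0.0763) did not pass. Leaving out 2D timepoint 1 replicate 2 or 2D timepoint 3 replicate 2 ended the call of SQSTM1 (edgeR adjusted p = 0.0552 and 0.213). That of NEU1 ended without 2D timepoint 1 replicate 2 or 3, or 2D timepoint 3 replicate 2 or 3 (adjusted p from 0.0582 to 0.298). At timepoint 2 against 1 in 2D, GPNMB rose by 3.08 (SE 0.51, edgeR adjusted p = 0.00178). ATG13, the regulatory subunit of the ULK1 complex, fell by 0.75 on the log2 scale (SE 0.16, adjusted p = 0.0111), where 2.66% of all genes were called higher and 3.22% lower (5.87% in all). With the block ULK1 (-0.67) and NPC1 (-0.71) were lower and NEU1 (0.53) higher at timepoint 2 in 2D too, with edgeR adjusted p of 0.0187, 0.019 and 0.0126, and of 0.404, 0.0956 and 0.0651 without it. There 13.7% of all genes passed, 6.59% higher and 7.06% lower. The ATG13 call ended without 2D timepoint 2 replicate 1 (adjusted p = 0.0513) or replicate 3 (0.0563).

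Over time in 3D culture 5 listed genes fell from timepoint 1 to 3: the kinase ULK1, its partner ATG13, ATG14, the ATG8 gene GABARAPL1 and the cholesterol transporter NPC1. None rose, and 5 of 40 stood against 11% of all genes called, 4.07% higher and 6.95% lower, so the share called was near that of all genes. ATG101 and BECN1, which also act at the start of autophagy, did not pass. The medians were -0.03 for the list and 0.04 for all genes. ATG13 went from 152, 182 and 147 CPM at timepoint 1 through 83.2, 104 and 72.4 CPM to 85.2, 94.9 and 70.1 CPM at timepoint 3. NPC1 went from 56.8, 63.3 and 36.6 CPM through 18.4, 30 and 25.1 CPM to 25.4, 27.6 and 16 CPM. For both genes the libraries of timepoint 1 lay above all later 3D libraries. The log2 fold changes at timepoint 3 were -1.58 for ULK1 (SE 0.39, edgeR adjusted p = 0.0145), -0.94 for ATG13 (SE 0.16, adjusted p = 0.00137), -0.95 for ATG14 (SE 0.20, adjusted p = 0.00513), -0.89 for GABARAPL1 (SE 0.21, adjusted p = 0.0125) and -1.19 for NPC1 (SE 0.25, adjusted p = 0.0055).

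At timepoint 2 against 1 in 3D the same 5 genes fell, by 0.84 to 1.24 on the log2 scale, and GABARAP and NPC2 rose by 0.69 (edgeR adjusted p = 0.0483) and 0.85 (adjusted p = 0.0107), which is 7 of 40 against 15.1% of all genes, 7.31% higher and 7.76% lower. GABARAP was at 117, 85.1 and 158 CPM at timepoint 1 and 208, 176 and 197 CPM at timepoint 2. Its adjusted p was 0.057 to 0.207 in 14 of the 17 fits that left out 1 library, and 0.0786 with an offset for length. The call of ULK1 at timepoint 3 ended without 3D timepoint 1 replicate 2 (0.0742), 3D timepoint 3 replicate 1 (0.0617) or replicate 3 (0.0759), and that of GABARAPL1 without 3D timepoint 3 replicate 3 (0.0718). At timepoint 2 the calls that ended were ULK1 without 3D timepoint 1 replicate 1 or 2, 3D timepoint 2 replicate 1 or 3, 2D timepoint 1 replicate 1 or 2D timepoint 2 replicate 1 (0.0505 to 0.174), GABARAPL1 without 3D timepoint 2 replicate 3 (0.0628) and NPC2 without 3D timepoint 1 replicate 2 (0.0587). With the block GABARAPL2 (0.53), ATG5 (0.47) and CD63 (0.41) were higher and LAMP1 (-0.52) and CTSD (-0.57) lower at timepoint 2, with edgeR adjusted p of 0.0105 to 0.0384 and, without it, of 0.101 to 0.23. There 28.4% of all genes passed, 14.8% higher and 13.6% lower. With the block CTSD, OPTN and LAMP1 were lower too at timepoint 3 (edgeR adjusted p = 0.00491, 0.0401 and 0.0343, and 0.0608, 0.0796 and 0.274 without it), where 23.9% of all genes passed, 12.5% lower. Between timepoints 2 and 3 edgeR called 0 listed genes in either culture, with 3 in 2D and 1 in 3D at an unadjusted p under 0.05 (6.82% and 5.12% of all genes), and DESeq2 and limma-voom called 0.

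**Figure D3:**
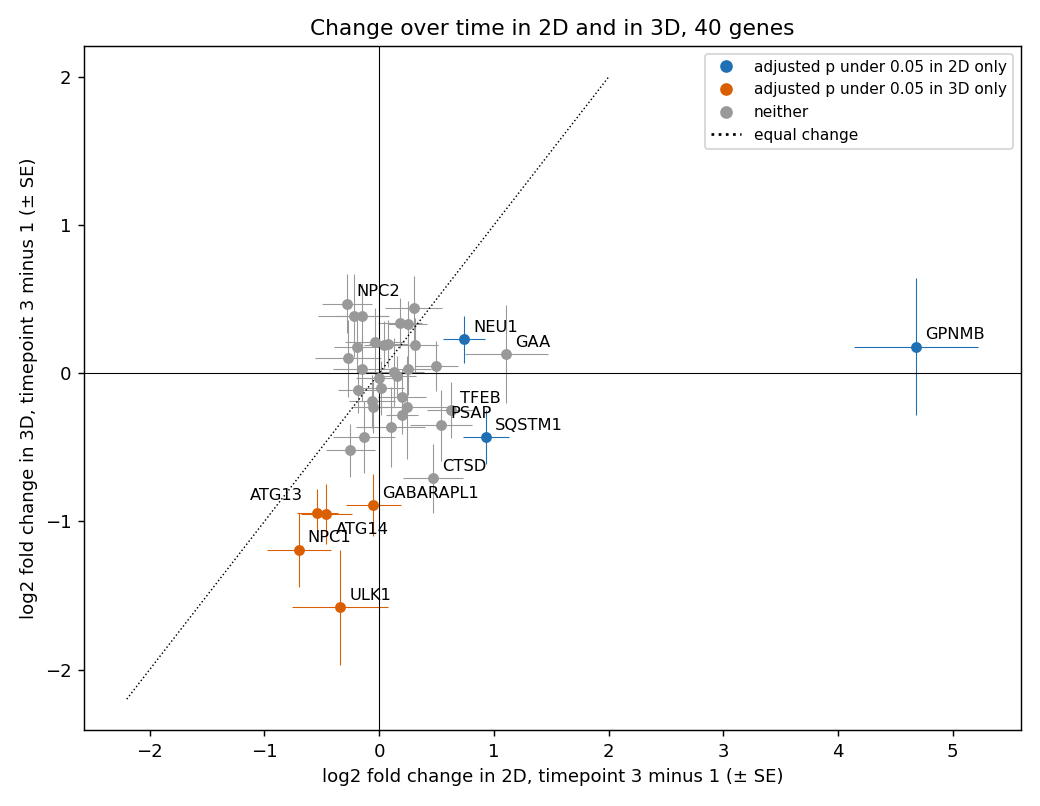
Log2 fold change from timepoint 1 to 3 in 2D (x axis) and in 3D (y axis) for the 40 genes, with standard errors. Blue points passed in 2D (GPNMB, SQSTM1 and NEU1), orange points passed in 3D (ULK1, ATG13, ATG14, GABARAPL1 and NPC1), and points below the dotted line of equal change have a lower value in 3D than in 2D.

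The change from timepoint 1 to 3 differed between cultures for 1 listed gene in the test of the interaction. GPNMB had an interaction of -4.50 on the log2 scale (SE 0.70, edgeR adjusted p = 0.019), where 0.183% of all genes passed, 0.177% with a negative interaction. The call ended without 2D timepoint 1 replicate 2 (adjusted p = 0.0788), 2D timepoint 3 replicate 3 (0.0745) or 3D timepoint 3 replicate 2 (0.0504), and with all 18 libraries (-4.09, adjusted p = 0.941). SQSTM1 had -1.36 (SE 0.28, adjusted p = 0.0724, and 0.0115 with the block), CTSD -1.18 (SE 0.35, adjusted p = 0.308, and 0.0356 with the block) and ULK1 -1.24 (SE 0.56, adjusted p = 0.593, and 0.0439 with the block, where 1.56% of all genes passed, 1.02% negative). For ATG13, ATG14, GABARAPL1 and NPC1, which fell in 3D, the interactions were -0.40, -0.49, -0.84 and -0.49. None of these passed in either fit, so a difference between cultures in the change over time was not shown for these genes. The interactions of timepoint 2 against 1 and of timepoint 3 against 2 gave 0 listed genes in edgeR, DESeq2 and limma-voom, with 6 and 5 of 40 at an unadjusted p under 0.05, against 8.73% and 4.67% of all genes.

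The 138 other genes of lysosome, autophagy, mTORC1 and KEAP1-NRF2 lists, of which 136 were tested, gave 4 calls between cultures at timepoint 2 and 3 at timepoint 3, where 1.49% and 1.5% of all genes were called. SORT1, sortilin, which carries proteins from the Golgi apparatus to lysosomes, was lower in 3D at both. It was at 20.8, 22.6 and 20.3 CPM in 2D and 5.75, 10.7 and 8.45 CPM in 3D at timepoint 2, and at 16.9 and 14.4 CPM and 5.85, 6.41 and 6.44 CPM at timepoint 3. The log2 fold changes were -1.36 (SE 0.21, edgeR adjusted p = 0.0113) and -1.33 (SE 0.23, adjusted p = 0.00824), and the left-out library had 7.4 CPM. The call at timepoint 2 ended without 2D timepoint 2 replicate 2 (0.0517) or 3D timepoint 2 replicate 1 (0.0655), and that at timepoint 3 without 2D timepoint 3 replicate 2 (0.148) or 3D timepoint 3 replicate 1 (0.0532).

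Of 26 tested genes of mTORC1 and its lysosomal regulators, SESN2 and FLCN were lower in 3D at timepoint 3. SESN2, a stress-induced inhibitor of mTORC1, was at 11.2 and 11.5 CPM in 2D and 3.13, 4.28 and 3.34 CPM in 3D (log2 fold change -1.66, SE 0.21, edgeR adjusted p = 0.000764). FLCN, folliculin, which lets mTORC1 act on TFEB and TFE3, was at 16.1 and 10.9 CPM in 2D and 4.8, 5.64 and 3.67 CPM in 3D (-1.52, SE 0.28, adjusted p = 0.0133). The groups did not overlap for either gene, and the left-out library had 4.74 CPM of SESN2, just above the 3D libraries, and 4.65 CPM of FLCN, among them. With all 18 libraries SORT1, SESN2 and FLCN did not pass at timepoint 3 (edgeR adjusted p = 0.285, 0.197 and 0.379), and did with the block as well (0.0189, 0.0172 and 0.0322). The call of FLCN ended without 2D timepoint 3 replicate 2 (0.277), 3D timepoint 3 replicate 1 (0.0625) or replicate 3 (0.061), and that of SESN2 in none of the 17.

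At timepoint 2 RETREG1, a receptor for autophagy of the endoplasmic reticulum, was lower in 3D, at 4.47, 3.51 and 4.58 CPM in 2D and 1.51, 1.72 and 2.05 CPM in 3D (log2 fold change -1.25, SE 0.22, edgeR adjusted p = 0.0177). LAMTOR1, which anchors mTORC1 regulators to the lysosome, and the proton pump subunit ATP6V1G1 were higher, with 0.78 (SE 0.18, adjusted p = 0.0467) and 0.71 (SE 0.17, adjusted p = 0.0491). With the offset for length both calls ended (adjusted p = 0.0665 and 0.0884), and each ended in 13 of the 17 fits that left out 1 library. That of RETREG1 ended without 2D timepoint 2 replicate 1, 2 or 3 or 3D timepoint 2 replicate 1 (0.0506 to 0.0765). Of 30 tested other lysosomal hydrolases 0 passed at either timepoint in edgeR, with 6 and 3 at an unadjusted p under 0.05, against 20.1% and 19.1% of all genes, and medians of -0.22 and -0.20. Of 10 KEAP1-NRF2 genes 0 passed, with 0 and 1 at an unadjusted p under 0.05.

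In the authors' deposited tables all 40 genes are listed. At timepoint 3 SQSTM1, GPNMB and CTSD are lower in 3D, with log2 fold changes of -1.38, -2.76 and -1.24 and adjusted p-values of 0.00306, 0.00312 and 0.0205. At timepoint 2 the authors' deposited table has NPC2 at 0.97 (adjusted p = 0.0222) and NBR1 at -0.50 (adjusted p = 0.045), and at timepoint 1 it has no listed gene under 0.05.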

How the data were processed

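The deposited count table holds whole-number counts per gene for 18 libraries, which the authors did not normalise. The submitters' processing notes name STAR 2.7.1a, HOMER, edgeR, limma and hg38; no source used here states the annotation release or the strand. The authors' deposited tables of log2 fold changes and adjusted p-values of 3D against 2D were copied for the listed genes, and the deposited log2 CPM table and the scores in the authors' tables (moderated t and log odds) were not used for tests. No sample column was left unused (0). Labels do not say whether replicates were separate cultures, so p-values measure the spread between these libraries.

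Counts of 17 libraries were filtered with filterByExpr, TMM-scaled and fitted over all groups in edgeR 4.0.16 (R 4.3.3) by its quasi-likelihood method, with Benjamini-Hochberg adjustment over 18592 genes. Called means an adjusted p under 0.05, and rose, fell, lower and higher without further words mean called. CPM used the TMM sizes, and the left-out library was scaled with all 18. The SE was back-calculated from the F statistic. The common dispersion was 0.0686, and 0.0363 with the block. The replicate numbers pair the libraries because each number has one date in the labels and all 8 pairs correlated above 0.1. Alternatives were DESeq2 1.42.0, limma-voom (limma 3.58.1), RLE scaling, no filter, all 18 libraries, the replicate block and leaving out each library.

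The members and lists were chosen with earlier results of these data known. Members with an adjusted p under 0.05 in a culture comparison or interaction, with or without the block, have their value given in every library, as do some called over time, and up to 3 genes of each other list are named per culture comparison. The fit was tested on simulated data: of genes changed by 1.5, 2 and 4 times, it found 1.49%, 20.9% and 81.8% in the timepoint 2 comparison (18099 genes) and 0%, 19.4% and 60.6% in that of timepoint 3 (18114 genes), each with 4 false calls. The simulated counts held no effect of replicate or date and were fitted without the block, so these rates need not hold for the real libraries or for the block. Matplotlib 3.10.9 drew the plots.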

Additional observations from a re-analysis of the deposited data

Results flagged for a closer look

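GPNMB met the test of a difference between the cultures in how they changed over time. Its change from timepoint 1 to 3 was 4.68 on the log2 scale in 2D and 0.18 in 3D, and the interaction was -4.50 (SE 0.70, edgeR adjusted p = 0.019). It rests on counts of 4 to 17 in the 2D libraries of timepoint 1, and it did not pass with all 18 libraries.

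SESN2, of the mTORC1 list, met the same test. The interaction of timepoint 3 against 1 was -1.62 (SE 0.28, edgeR adjusted p = 0.027, and 0.0048 with the replicate block). It did not pass in 8 of the 17 fits that left out 1 library (adjusted p up to 0.176), nor with all 18 libraries (-1.31, adjusted p = 0.98).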

How the results depend on the processing

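Alternatives were recomputed for each comparison's listed genes that passed with or without the replicate block, and none of these fold changes reversed; for genes that passed in neither, values near 0 could change sign, as for ATG14 at timepoint 3 against 2 in 2D (-0.08, and 0.03 with the block). The replicate block raised the calls, and it moved the number of listed genes called from 1 to 10 at timepoint 2, from 3 to 13 at timepoint 3, from 2 to 5 and from 3 to 7 at timepoints 2 and 3 against 1 in 2D, from 7 to 12 and from 5 to 8 in 3D, and from 1 to 4 in the interaction of timepoint 3 against 1; it ended no call. Without the filter the counts were 1, 4 and 8 between cultures at timepoints 1, 2 and 3, 4 for timepoint 2 against 1 and 1 for timepoint 3 against 2 in 2D, and 1 and 4 in the interactions of timepoints 2 and 3 against 1. DESeq2 gave 5 and 8 between cultures at timepoints 2 and 3, 4 and 6 for timepoints 2 and 3 against 1 in 2D, 8 for timepoint 3 against 1 in 3D and 2 in the interaction of timepoint 3 against 1. With all 18 libraries 0 were called between cultures at timepoint 3 and 0 in that interaction. All 18 libraries with the replicate block, an alternative chosen after seeing the data, gave 10 and 6 between cultures, 5 and 8 over time in 2D, 14 and 8 over time in 3D, and 0 in that interaction. RLE scaling, limma-voom and the length offset, the last also chosen after seeing the data, kept every such count within 1.5 times. Leaving out each library gave 0 to 2 listed genes at timepoint 2, 0 to 4 at timepoint 3, 1 to 3 and 1 to 4 over time in 2D, 4 to 8 and 3 to 7 over time in 3D, and 0 to 1 in the interaction of timepoint 3 against 1. Over all genes, 277 were called at timepoint 2 and 278 at timepoint 3, and 2949 and 1813 with the block, 1554 and 1625 without the filter, 1336 and 1021 with DESeq2, and 82 and 0 with all 18 libraries. With all 18 libraries and the block they were 2839 and 1052. Timepoint 1 gave 0, and 49 without the filter. Over time from timepoint 1 the calls of all genes were 1092 and 903 in 2D and 2801 and 2049 in 3D, and with the block 2539, 1954, 5279 and 4447 (2434, 2402, 5134 and 4366 with all 18 libraries); DESeq2 gave 1771 and 1587 in 2D, and 1657 passed without the filter for timepoint 3 there. Timepoint 3 against 2 gave 0 in each culture, and without the filter 168 in 2D and 133 in 3D, with DESeq2 24 and 29, and in 2D 7 with the block and 17 with all 18 libraries and the block. The interactions of timepoint 2 against 1, 3 against 1 and 3 against 2 gave 0, 34 and 0, without the filter 281, 479 and 129, with DESeq2 41, 146 and 6, with the block 243, 290 and 0, and with all 18 libraries and the block 29, 0 and 0. Leaving out 1 library gave 0 to 778 of all genes at timepoint 2 (0 without 3D timepoint 2 replicate 1), 35 to 347 at timepoint 3 (35 without 2D timepoint 3 replicate 2), 618 to 1210 and 196 to 986 over time in 2D (lowest without 2D timepoint 2 replicate 1 and 2D timepoint 3 replicate 2), 1252 to 3606 and 1131 to 2749 over time in 3D (both lowest without 3D timepoint 1 replicate 2), and 8 to 34 in the interaction of timepoint 3 against 1 (8 without 2D timepoint 3 replicate 2). The cause of these differences was not tested. In the simulated data the fit without the block missed most changes of 1.5 times, and a gene that did not pass is not shown to be equal.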
